A study of Mus musculus with 4 samples.

Results

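CHD4 was mapped by CUT&Tag in C57BL/6 mouse cells labelled spermatogonial, and 290 of the 1849 intervals called for CHD4 over IgG contained the start of a transcript. They made up 15.7% of the list (exact 95% binomial interval 14.1 to 17.4%) and were chosen as the rows whose deposited distance to the nearest transcript start was 0, with rows of the same interval joined. The choice used position alone, and neither the fold nor the q of an interval entered it. The 290 intervals belonged to 288 genes, because Commd1 and Zfp583 each had 2. Of the 4 samples, 2 were stained for CHD4 and 2 with IgG of no specific target, all from digested testes, with no genetic change or treatment in either group. No source used here says how spermatogonial cells were set apart from other testis cells, and a peak list holds no RNA level from which the label could be checked. The deposited list is 1 call over all 4 samples. No value can therefore be given per sample, no error between replicates can be stated, and no test over samples was possible. The 95% intervals printed with shares and medians cover only the counting of intervals, and neighbouring intervals are not independent of each other.

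CHD4 is an ATP-driven chromatin remodeller and the motor of the NuRD complex, which moves nucleosomes and, through HDAC1 and HDAC2, removes acetyl groups from histones. NuRD occupies many active promoters and enhancers as well as silenced genes, and in the male germ line CHD4 is known for its part in keeping spermatogonial stem cells. In CUT&Tag, an antibody brings the Tn5 transposase to the protein of interest, and Tn5 inserts sequencing adapters into the DNA close by. Open promoter DNA is easily reached by Tn5 without any antibody against a chromatin protein, which is what the IgG samples measure. At an active promoter a stretch of open DNA lies upstream of the start, and the leading nucleosome of the gene lies just downstream.

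The promoters of the 4 protein-coding genes of highest fold with a RefSeq promoter entry within 100 bp of the deposited start are shown here, because they give the base composition that the results below describe. Each runs from 250 bases before to 50 bases after the RefSeq transcript start, which is base 251, and each is written 5′ to 3′ on the gene's strand. The build is GRCm38.p6, whose chromosome coordinates are those of mm10. Capitals mark each CpG, the dinucleotide that DNA methylation targets and that CpG islands keep. Zfp184, a zinc finger protein, lies on the plus strand at chr13:21944844-21945143 with 17 CpG. Fancb, a subunit of the Fanconi anaemia DNA repair complex, lies on the plus strand at chrX:164980342-164980641 with 13 CpG. Sgf29, a subunit of the SAGA histone acetyltransferase complex, lies on the plus strand at chr7:126649059-126649358 with 15 CpG. Sft2d1, a membrane protein of vesicle transport, lies on the plus strand at chr17:8310853-8311152 with 17 CpG.
Zfp184: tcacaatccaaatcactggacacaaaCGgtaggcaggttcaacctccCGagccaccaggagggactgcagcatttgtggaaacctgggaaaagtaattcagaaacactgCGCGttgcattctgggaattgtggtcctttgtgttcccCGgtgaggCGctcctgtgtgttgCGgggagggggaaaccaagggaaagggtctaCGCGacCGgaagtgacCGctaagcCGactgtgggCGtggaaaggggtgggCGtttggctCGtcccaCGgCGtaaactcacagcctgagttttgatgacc
Fancb: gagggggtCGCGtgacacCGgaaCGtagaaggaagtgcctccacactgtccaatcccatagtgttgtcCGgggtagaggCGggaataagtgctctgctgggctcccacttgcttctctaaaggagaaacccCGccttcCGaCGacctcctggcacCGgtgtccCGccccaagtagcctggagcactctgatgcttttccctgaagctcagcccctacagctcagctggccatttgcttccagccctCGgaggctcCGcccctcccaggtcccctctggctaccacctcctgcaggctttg
Sgf29: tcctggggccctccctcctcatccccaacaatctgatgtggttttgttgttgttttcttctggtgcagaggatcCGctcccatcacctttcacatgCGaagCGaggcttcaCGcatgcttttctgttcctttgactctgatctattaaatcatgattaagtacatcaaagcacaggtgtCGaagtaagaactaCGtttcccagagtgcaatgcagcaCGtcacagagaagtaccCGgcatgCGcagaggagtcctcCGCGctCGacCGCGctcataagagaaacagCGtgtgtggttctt
Sft2d1: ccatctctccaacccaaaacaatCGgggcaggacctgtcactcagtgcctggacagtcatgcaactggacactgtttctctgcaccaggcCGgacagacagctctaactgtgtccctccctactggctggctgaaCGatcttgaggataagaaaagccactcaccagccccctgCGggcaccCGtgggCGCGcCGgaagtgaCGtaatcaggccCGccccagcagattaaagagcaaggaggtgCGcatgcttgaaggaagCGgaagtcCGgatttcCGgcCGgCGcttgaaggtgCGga
The CHD4 interval covered all 300 bases of the Zfp184 window and 259 of the Fancb window. It covered the last 91 bases of the Sgf29 window and the last 28 of the Sft2d1 window, and in these genes the summit lay downstream of the printed window, 148 and 113 bp beyond the RefSeq start.

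CHD4 intervals over transcript starts held more CHD4 fragments than the rest of the list and had a lower fold. A summit is a local high point of signal, and an interval with several was given its summit of highest fold. There the start intervals had a median of 33 CHD4 fragments (95% interval 30 to 36, range 12 to 155). The other 1559 intervals had a median of 26 (26 to 27). The fold, which is the caller's ratio of CHD4 to IgG signal at the summit, had a median of 4.33 (4.18 to 4.51, range 1.82 to 10.97) at starts and 4.80 (4.76 to 4.89) elsewhere. Between the medians the fold differed by -0.47, and the ends of the 2 intervals for the medians put this difference between -0.72 and -0.26. The IgG expectation, the number of fragments the caller expected at the summit from IgG, had a median of 2.21 (2 to 3) at starts and 1.22 (1.11 to 1.29) elsewhere. Fragment numbers are not in the deposited list and were recovered from each summit's fold and p on a model of the caller. On that model the CHD4 library was 2.33 times as deep as the IgG library, so CHD4 fragments and IgG expectations stand on different depths and cannot be divided by each other.

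Both lower fold and higher IgG were shared with the 341 intervals that lay within 1 kb of a start without containing it. Those had a median fold of 4.23 (4.11 to 4.43), a median of 35 CHD4 fragments and a median IgG expectation of 2.77. In introns the median fold was 5.13 with 23 CHD4 fragments, and in distal intergenic DNA it was 4.88 with 25, both over a median IgG expectation of 1. The IgG expectation stood at the lowest value the caller used at 2 of the 290 start intervals (0.69%), against 127 of the others (8.15%). Fewer than 20 CHD4 fragments lay under 47 start intervals (16.2%, 12.2 to 21.0%) and under 427 others (27.4%, 25.2 to 29.7%).

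**Figure D1:**
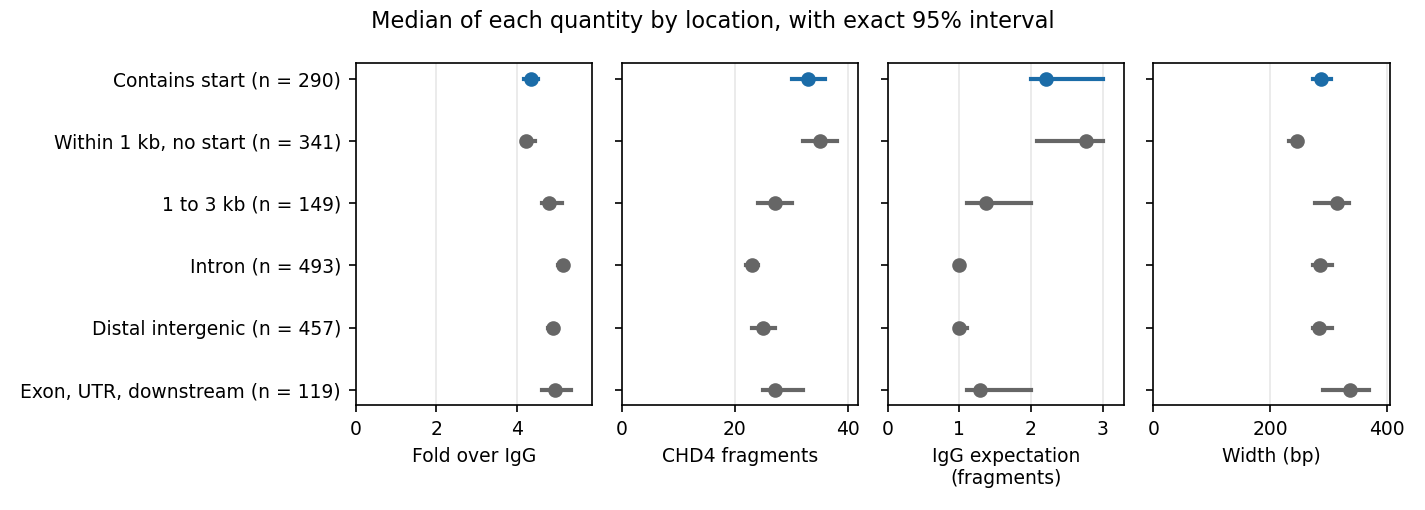
Median fold over IgG, CHD4 fragments at the summit, IgG expectation in fragments and interval width in bp (one panel each), for intervals that contain a start (blue) and 5 other locations (grey). Points are medians and bars exact 95% intervals. Start intervals and those within 1 kb have the lowest folds, 4.33 and 4.23, and the highest IgG expectations, 2.21 and 2.77.

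When intervals of like IgG expectation were set side by side, the median folds were close. At an expectation of up to 1, the 77 start intervals and the 700 others both had a median fold of 5.43 (5.11 to 5.86 and 5.22 to 5.43). Between 1 and 3, the medians were 4.44 (4.32 to 4.59) for 94 start intervals and 4.75 (4.57 to 4.90) for 522 others. Above 3, they were 3.42 (3.24 to 3.54) for 119 and 3.54 (3.45 to 3.63) for 337. This highest class held 41.0% of the start intervals and 21.6% of the others, while the lowest held 26.6% and 44.9%. The intervals of the medians overlapped in all 3 classes. The IgG expectation enters the denominator of the fold and was itself recovered from the fold and p. Every interval had also passed a q threshold, which ties the lowest possible fold to the IgG level. Close folds within a class are thus partly set in advance, and the cause of the lower fold at starts was not tested.

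**Figure D2:**
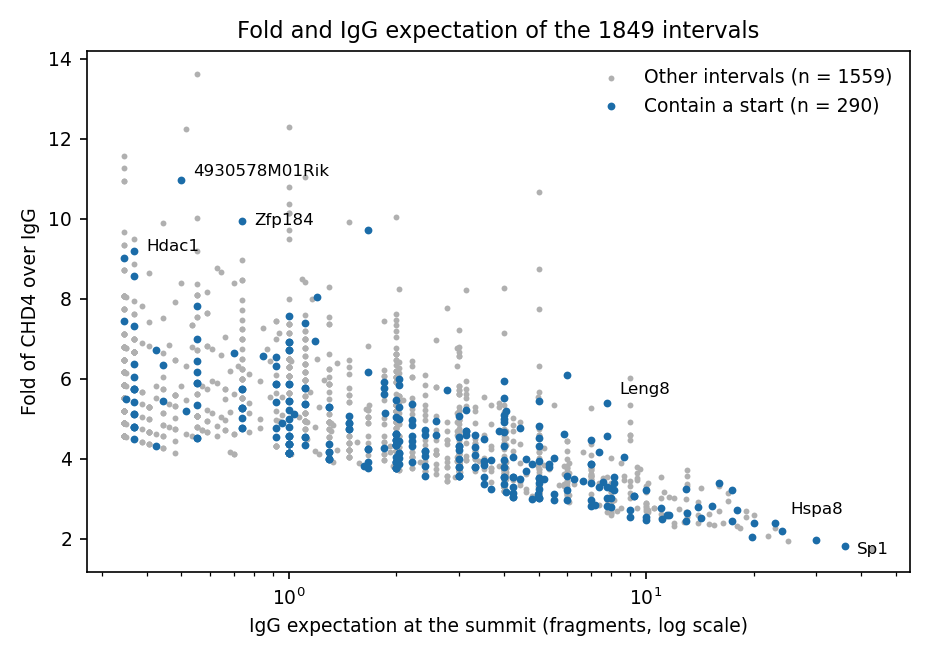
Fold of CHD4 over IgG against the IgG expectation at the summit (fragments, log scale) for the 290 start intervals (blue) and the 1559 others (grey), one point per interval. Fold falls as the IgG expectation rises in both groups, from Hdac1 (9.18 at 0.369) to Sp1 (1.82 at 36). The expectation enters the denominator of the fold.

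A q of 0.01 or less was reached by 218 start intervals (75.2%), against 77.3% of all 1849 intervals. A fold of 5 or more was reached by 85 (29.3%, 24.1 to 34.9%), against 42.2% of all. The first share is near that of the whole list, and the second is below it. Median −log10 q was 2.90 at starts and 2.91 elsewhere. The authors' largest q was 0.0492, so every interval had passed a threshold before any was counted here.

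Among single genes, the highest fold was at 4930578M01Rik, an uncharacterised long non-coding transcript (chr15:98985513-98985967). It was 10.97, from 36 fragments over an IgG expectation of 0.498. Zfp184 followed at 9.95 from 38 fragments over 0.738, in an interval of 895 bp with 2 summits (chr13:21944687-21945581). The transcript 4930444M15Rik had a fold of 9.72 from 58 fragments over 1.66. Hdac1, the histone deacetylase that is itself a NuRD subunit, had 9.18 from 27 fragments (exact 95% Poisson interval 17.8 to 39.3) over 0.369. Fancb had 9.03 from 26 fragments over 0.346, the lowest expectation in the list. All of these but 4930444M15Rik had an IgG expectation under 1, so their folds rest on few IgG fragments.

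The next folds belonged to genes of varied function. Rdh13, a retinol dehydrogenase of mitochondria, had 8.56, and Sbno2, a transcriptional co-regulator of the strawberry notch family, had 8.06. A930006K02Rik, an uncharacterised transcript, had 7.82. Pnpla6, a phospholipase of the endoplasmic reticulum, had 7.57. Sgf29 and Sft2d1 had 7.39 and 7.31.

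Strength by q picked out other starts, with more fragments. Mir6546, a microRNA gene whose interval also held the boundary of a transfer RNA gene, had the highest −log10 q, 15.1, from 97 fragments over an IgG expectation of 6. Leng8, a nuclear RNA export protein, had 15.0 from 108 fragments over 7.75. The transcripts 4930444M15Rik and 4930578M01Rik had 14.6 and 12.7, Zfp184 had 11.6, and Trim41, a ubiquitin ligase, had 10.2. Leng8 and Trim41 had folds of 5.40 and 4.57, well below those of Zfp184 and Hdac1.

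Starts with the most CHD4 fragments had low folds. Sp1, the transcription factor that binds GC boxes, had 155 fragments, the most of any start interval, and the lowest fold, 1.82, over an IgG expectation of 36. Tsga10, a protein of the sperm tail, had 139 fragments and a fold of 1.95. Usp5, a deubiquitinase, had 135 fragments and 3.21, Rdm1, a DNA repair factor, 132 and 3.39, and Mtmr4, a lipid phosphatase of endosomes, 132 and 2.40. IgG expectations at these 5 ranged from 16 to 36.

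At the other end, the water channel Aqp5 and the transcript AW209491 were called on 12 CHD4 fragments each. Snw1, a splicing and transcription factor, and Zfp30, a zinc finger protein, had 13 each. Their folds lay between 4.31 and 4.80, close to the median of all start intervals. Their IgG expectations, 0.369 to 0.424, were near the lowest in the list.

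Start intervals had a median width of 287.5 bp (274 to 304, range 184 to 1584), against 278 (273 to 286) for the others, a difference of 9.5 bp whose interval ran from -12 to 31. Intervals within 1 kb that missed the start were narrower, with a median of 246 bp (232 to 254). The rule itself favours wide intervals. Of the intervals within 1 kb of a start, 34.4% of those under 250 bp contained it, 50.7% of those from 250 to 349 bp and 59.9% of those of 350 bp or more. In 50 members the start was within 20 bp of the interval's edge, and these had a median fold of 4.30 and width of 254 bp. The 36 intervals that missed a start by up to 20 bp had 4.52 and 230 bp.

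Of the 5 widest start intervals, 4 lay on genes of small nuclear RNAs. Rdm1 had 1584 bp and overlapped a small nuclear RNA gene, D230017M19Rik had 1477 bp with 5 summits over the small nuclear RNA gene Gm24497, and Tex14 had 1162 bp over Gm22068. Rnu11, the RNA of the U11 particle that recognises minor introns, had 1079 bp, and Zfp184 had 895 bp. In all, 7 start intervals (2.41%) overlapped genes of small nuclear, transfer or 7S RNA, close to the 2.50% of the others. The narrowest were at Lmo4, a LIM-domain transcription cofactor, and Nudt6, both 184 bp, Smim8 at 185, Use1, a SNARE of the endoplasmic reticulum, at 186, and Nkapd1 at 187. Small RNA genes have near-identical copies, and no source used here states what was done with reads of more than 1 best position. Values at these genes, and at histone, ribosomal protein and zinc finger genes, are therefore uncertain.

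The CHD4 summit lay downstream of the transcript start more often than upstream. It was downstream in 177 of 290 intervals (61.0%, 55.2 to 66.7%), upstream in 112 and at the start in 1. The median summit was 31 bp downstream (13 to 52), and the median distance in either direction was 88.5 bp (76 to 97). In 83 intervals the summit was within 50 bp of the start, in 168 within 100 bp and in 35 beyond 200 bp. The interval itself reached a median of 114.5 bp upstream and 172 bp downstream. In the 218 intervals with a q of 0.01 or less the summit was downstream in 140 (64.2%).

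Named genes showed both arrangements. The summit was 148 bp downstream of the start at Sgf29, 102 bp downstream at Leng8 and 99 bp downstream at Bax. It was 104 bp upstream at Fancb, 120 bp upstream at Dusp6 and 321 bp upstream at Sp1, the farthest upstream of all. At Hilpda, a lipid droplet protein induced by hypoxia, the summit was 1 bp from the start. Rdm1 had the farthest downstream summit, at 810 bp, within its interval of 1584 bp.

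**Figure D3:**
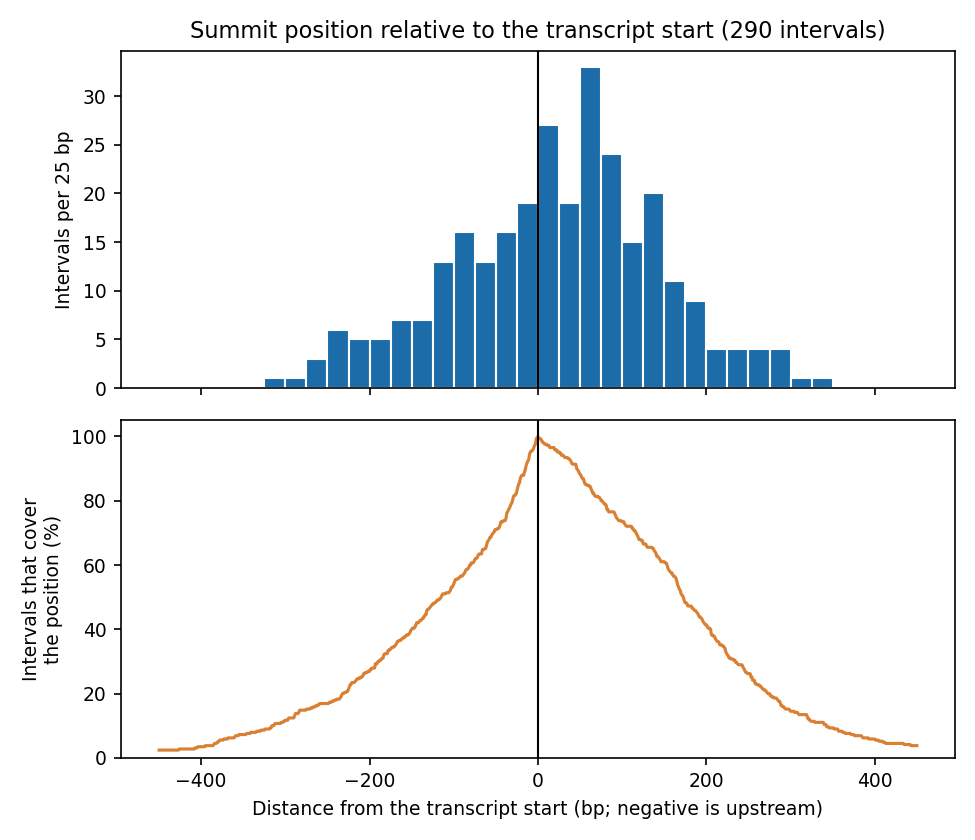
Top, number of start intervals per 25 bp of summit position relative to the transcript start (bp, negative is upstream). Bottom, percent of the 290 intervals that cover each position. Summits are most frequent 50 to 100 bp downstream (56 intervals), coverage is wider downstream, and the summits at 468 bp (Stil) and 810 bp (Rdm1) fall outside the plotted range.

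The starts named in the deposited list were not always the outer 5′ end of the gene. Set against the RefSeq gene table of GRCm38.p6, which held the gene of 289 intervals, 163 starts (56.2%) were within 100 bp of the gene's 5′ boundary. Another 55 were between 100 bp and 1 kb inside the gene, 49 (16.9%) more than 1 kb inside and 22 upstream of the gene as RefSeq draws it. Of the intervals within 1 kb that missed the start, 99 of 341 (29.0%) were assigned to a start more than 1 kb inside its gene. Median fold was 4.36 (4.18 to 4.59) at gene ends and 4.32 (3.99 to 4.70) at the starts more than 1 kb inside, and the summit was downstream in 60.1% and 63.3% of them. Their median widths were 311 bp (288 to 338) and 272 bp (233 to 318).

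Hdac1 was one of the inside starts, at 13.6 kb into the gene (chr4:129528729-129529187), with the summit 60 bp upstream of that start. No Hdac1 interval contained the gene's own 5′ end. Other starts lay far inside long genes, 333 kb in Ncald, a neuronal calcium sensor, 308 kb in Aopep, an aminopeptidase, 117 kb in Mtus1 and 92.9 kb in Tacc2, a centrosome protein. Rbpj, the DNA-binding partner of Notch, had its start interval 34.4 kb inside, Rdh13 25.7 kb, Tex14 22.6 kb and Camkk2 15.7 kb. Among the 49 inside starts, 19 had a RefSeq transcript start within 100 bp. These genes were singled out after their positions were seen, as were the upstream starts of Zbtb38 and Zfp617, at -21.2 and -14.2 kb from the 5′ ends that RefSeq draws.

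Protein-coding genes held 260 of the start intervals (89.7%, 85.6 to 92.9%), long non-coding RNA genes 21, microRNA genes 6 and small nuclear RNA genes 2. The nearest gene was protein-coding for 85.8% (84.0 to 87.5%) of the other intervals. The genes were sorted into 19 classes by patterns on their deposited names, which placed 114 members in a class and left the others in none. Classes overlap, and a name pattern misses genes whose name does not state their role. For the other intervals the class is that of the gene with the nearest start, which need not be the gene the interval acts on.

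Genes named as zinc finger proteins made up the largest class of known function. Most such proteins bind DNA through repeated finger domains, and many of them recruit silencing complexes to transposable elements. They accounted for 15 start intervals in 14 genes (5.17%, 2.92 to 8.39%), against 31 of the others (1.99%, 1.36 to 2.81%). Their median fold was 5.43, above the 4.33 of all members, over a median IgG expectation of 1, against 2.21. The intervals of the 2 shares did not overlap, but 19 classes were compared and no interval was widened for their number. Zfp184 led with 9.95, followed by Zfp52 at 6.57, Zfp583 at 6.44 for its stronger interval and Zfp719 at 5.99. The lowest in the class was Zfp738 at 3.91. On chromosome 7 there were 6 of the 15 and on chromosome 13 there were 4, chromosomes that carry clusters of such genes. Of the 15 starts, 5 were within 100 bp of the RefSeq 5′ end, against 56.2% of all members.

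Sequence-specific transcription factors not named as zinc fingers, a class that rests on names and holds Sp1 although its DNA-binding domain is made of zinc fingers, had 4 start intervals (1.38%, 0.38 to 3.49%) and 59 others (3.78%, 2.89 to 4.86%), and the intervals overlapped. Sox5, an HMG-box factor, had a fold of 5.50, Pbx3, a homeodomain cofactor of Hox proteins, 3.80, Hbp1, an HMG-box repressor, 2.71 and Sp1 1.82. Protein and lipid kinases had 8 start intervals (2.76%, 1.198 to 5.36%) and 72 others (4.62%, 3.63 to 5.78%). Their highest folds were at Camkk2, a calcium-dependent kinase that activates AMPK, with 6.34, Eef2k, which slows translation elongation, with 4.58, Map4k3 with 4.36 and Nme1, a nucleoside diphosphate kinase, with 4.15. Membrane transporters and channels had 3 (1.03%, 0.21 to 2.99%) and 47 (3.01%, 2.22 to 3.99%), with Slc33a1, the acetyl-CoA transporter, at 4.20, Slc35b1 at 3.84 and Tmc6 at 2.71. For kinases and for transporters the intervals of the 2 shares overlapped.

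Ribosomal protein genes had 6 start intervals (2.07%, 0.76 to 4.45%) against 10 others (0.64%, 0.31 to 1.18%), led by Rpl5 at 6.72, Rpl37a at 4.77, Rpl36al at 4.59 and Rpl27a at 4.21. Genes of mitochondrial proteins had 9 (3.10%, 1.43 to 5.81%) against 16 (1.03%, 0.59 to 1.66%). These included Mtus1 at 5.74, Opa1, the fusion GTPase of the inner membrane, at 4.77, Wars2, the mitochondrial tryptophan tRNA synthetase, at 4.70 and Msto1 at 4.48. Translation factors and tRNA synthetases had 4 against 8, with Eif2s3x, a subunit of initiation factor eIF2, at 5.26, Aarsd1 at 4.76, Wars2 at 4.70 and Eif4e, the cap-binding protein, at 3.05. In all 3 of these classes the share at starts was the larger, and its interval overlapped that of the other intervals.

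Histone genes had 5 start intervals (1.72%, 0.56 to 3.98%) against 8 others (0.51%, 0.22 to 1.01%), all 5 in the cluster on chromosome 13 and at the RefSeq 5′ end. Hist1h1e, a linker histone, had a fold of 6.37 from 18 fragments over an IgG expectation of 0.369. Hist1h2bk had 5.28, Hist1h2ag 4.66 and Hist1h2bl 3.57, and Hist1h2bm had the lowest, 3.02. These are replication-dependent histone genes, transcribed in dividing cells. The intervals of the 2 shares overlapped.

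**Figure D4:**
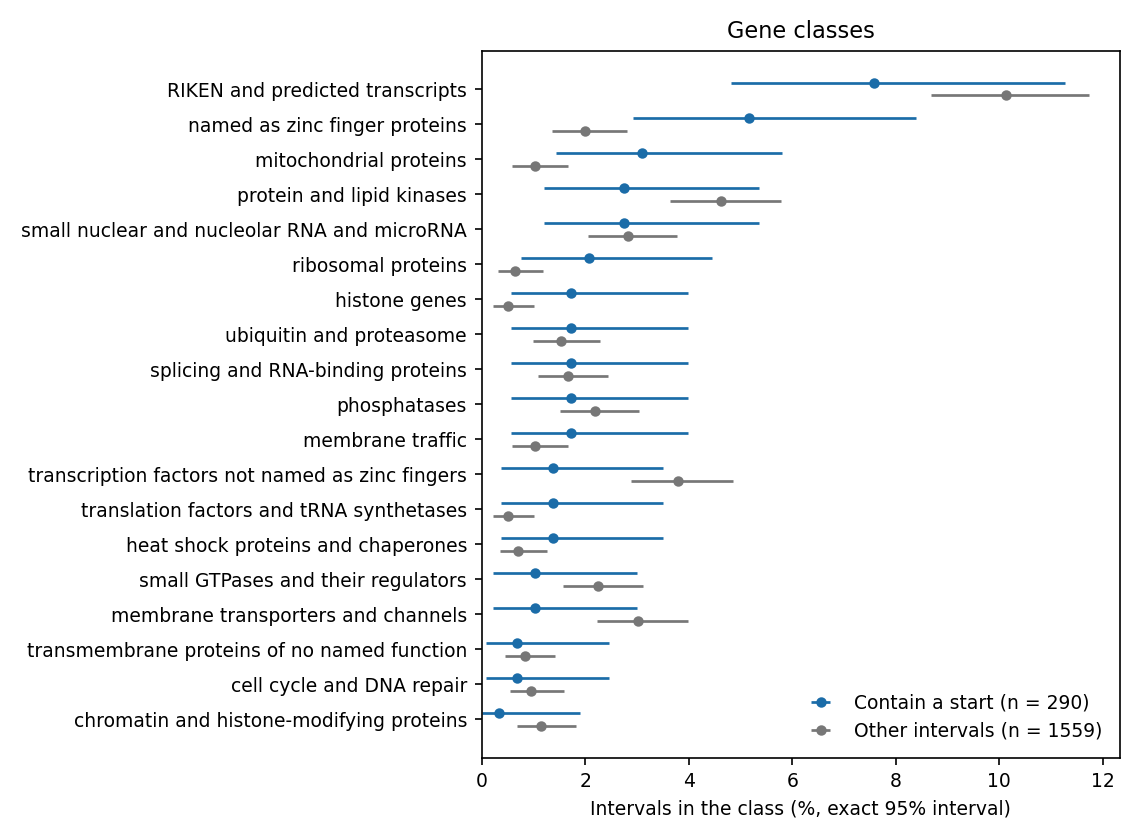
Percent of the 290 start intervals (blue) and of the 1559 others (grey) whose gene falls in each of 19 name classes, with exact 95% binomial intervals. Genes named as zinc finger proteins stand at 5.17% against 1.99%, and transcription factors not so named at 1.38% against 3.78%.

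The remaining classes rested on few members or had shares near those elsewhere. Phosphatases had 5 start intervals (1.72% against 2.18%), with Ptpn2, a phosphatase of JAK and STAT proteins, at 5.85, Ppp1r9a at 5.33, Inppl1, the lipid phosphatase SHIP2, at 5.13 and Ppp1r15b, which restores eIF2 alpha after stress, at 3.54. Splicing and RNA-binding proteins had 5 (1.72% against 1.67%), with Larp7 at 4.76, Rbm12b2 at 4.48, Snrpd2 at 2.98 and Srsf1 at 2.78. Ubiquitin and proteasome genes had 5 (1.72% against 1.54%), with Mkrn1 at 3.91, Dcun1d3 at 3.29, Usp5 at 3.21 and Fbxo33 at 3.10. Membrane traffic had 5 (1.72% against 1.03%), with the sorting nexins Snx15 at 4.54, Snx3 at 4.31 and Snx21 at 3.91, and Trappc6b at 4.33. The pattern for heat shock proteins took 4 (1.38% against 0.71%), Cryab at 4.05, Dnajb1 at 3.004 and Hspa8 at 2.201, together with Cryzl1 at 3.24, a quinone reductase that only shares a word with the crystallins.

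The pattern for small GTPases and their regulators took 3 (1.03% against 2.25%), Arl6ip5 at 6.94, Opa1 at 4.77 and Rapgef2 at 4.57. Their deposited names describe an interacting protein, a mitochondrial dynamin-like GTPase and an exchange factor, and none names a small GTPase itself. The cell cycle and repair pattern took 2 (0.69% against 0.96%), Cdc37l1 at 3.79 and Ercc1, a nuclease subunit of excision repair, at 3.13, and unnamed transmembrane proteins also had 2 (0.69% against 0.83%), Tmem267 at 4.10 and Tmem131 at 3.55. Hdac1 was the only member that the chromatin pattern found (0.34% against 1.15%). RIKEN and predicted transcripts had 22 (7.59% against 10.1%), led by 4930578M01Rik, 4930444M15Rik, A930006K02Rik and 1700030C14Rik, the last with a fold of 6.72. Of these 22 starts, 19 were within 100 bp of the RefSeq 5′ end. Small nuclear RNA and microRNA genes had 8 (2.76% against 2.82%), with Rnu11 at 6.32, Mir6546 at 6.08, Mir3092 at 5.26 and Mir3109 at 5.14.

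Genes known for spermatogonia, their fate and the other cells of the testis were counted in 11 lists. Of their 220 genes, each counted once, 4 had a start interval (1.82%, 0.50 to 4.59%), against 1.18% of the 21896 protein-coding genes in the RefSeq table. Of 29 genes of self-renewal and undifferentiated spermatogonia, 1 had a start interval, Dusp6, a phosphatase that turns off ERK signalling downstream of growth factors such as GDNF. Dusp6 had a fold of 3.10 from 41 fragments over an IgG expectation of 4.98, below the median fold of the members. Of 15 NuRD genes 1 did (Hdac1), of 32 meiosis genes 1 (Tex14, which builds germ cell bridges) and of 24 genes of apoptosis and the p53 response 1. That gene was Bax, which opens the mitochondrial membrane in cell death, with a fold of 4.62 from 30 fragments over 2. The Tex14 start interval lay 22.6 kb inside the gene and overlapped the small nuclear RNA gene Gm22068, so its signal cannot be assigned to Tex14 alone. No start interval was found for any of 12 genes of spermatogonial differentiation, 32 of the cell cycle, 18 of the retinoic acid pathway, 18 of spermatids, 19 of Sertoli cells, 10 of Leydig cells or 15 of peritubular myoid, endothelial and macrophage cells. In the same lists, intervals elsewhere were assigned to 4 self-renewal genes (Dusp6, Itgb1, Nanos3 and Spry4), 6 Sertoli cell genes and 4 cell cycle genes. They were also assigned to 3 meiosis genes, 3 of apoptosis and 3 of peritubular myoid, endothelial and macrophage cells. Spermatids and the retinoic acid pathway had 2 each, NuRD had 1, and spermatogonial differentiation and Leydig cells had none. The share of all genes with such intervals was not computed, so these counts cannot be called high or low. An interval marks CHD4 signal on DNA and says nothing of how much RNA the gene makes.

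Members were spread over the genome with modest differences between chromosomes. Chromosome 7 held 33 (11.4%, against 7.38% of the other intervals) and chromosome 14 held 4 (1.38% against 3.46%). The X chromosome held 4 (1.38%, 0.38 to 3.49%, against 0.96%). These were Fancb at 9.03, Eif2s3x at 5.26, Ndufb11, a subunit of respiratory complex I, at 4.33 and Pqbp1, a splicing regulator, at 3.57.

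Some start intervals covered a promoter shared by 2 genes. In 31 of the 290 the boundary of a second RefSeq gene also lay inside the interval, in 28 of them on the upstream side of the member's start. The second gene was a long non-coding RNA gene in 16 and protein-coding in 9. In the promoter table the starts of both genes ran on opposite strands in 18. The 6 of highest fold among these paired a protein-coding gene with a long non-coding RNA: Ubp1 with Gm39439 (fold 5.94), Tacc2 with Gm39098 (5.87), Sgms2 with Gm36753 (5.76), Tes with Gm15473 (5.75), Socs2 with 5730420D15Rik (5.73) and Fkbp1a with Gm14167 (5.22). Protein-coding pairs on opposite strands were 5, among them Hist1h2ag with H2bc11 and Babam2 with Rbks. At a shared promoter the signal cannot be assigned to 1 of its 2 genes. Shared promoters were not counted for the other intervals, so no comparison is given.

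Most promoters under start intervals were rich in CpG. For 170 members the RefSeq promoter table had a start within 100 bp of the deposited one, and composition was read from those windows of 300 bases. Their median GC content was 58.8% and their median ratio of observed to expected CpG 0.795. Taking as CpG-rich a ratio over 0.6 with GC over 50%, 77.6% (70.6 to 83.7%) passed. Among the 151 that were protein-coding 79.5% (72.1 to 85.6%) passed, against 44.9% of all 21262 protein-coding promoters in the table. The 175 intervals within 1 kb of a start had almost the same share, 76.6% (69.6 to 82.6%), with an interval that overlapped that of the members. Of the 53 members with a fold of 5 or more 69.8% (55.7 to 81.7%) were CpG-rich, and of the 117 below 5 it was 81.2% (72.9 to 87.8%), with overlapping intervals. Of the printed promoters, Zfp184 had a ratio of 0.730 and Fancb 0.466, so Fancb was not in the CpG-rich class.

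Short motifs were then searched on both strands of the same windows, and 10 were fixed for the search. Promoter elements common to many genes were the TATA box, searched as TATAAA, the CCAAT box, searched by those letters, and the GC box of Sp1 and its relatives, searched as GGGCGG. The response element of cyclic AMP signalling was searched as TGACGTCA, the site of ETS factors as CCGGAAG and the E-box of Myc and related factors as CACGTG. The core of the NRF1 site was searched as GCATGCGC, and the core of the YY1 site, which often overlaps the start of translation, as ATGGCGGC. The site of AP-1 was searched as TGANTCA and that of GATA factors as AGATAA. No motif contains another. A match describes letters in the window, which can lie outside the interval, and is neither a site nor a cause of CHD4 signal. Among the 151 protein-coding members the NRF1 core was present in 13.2% (8.28 to 19.7%), against 3.51% of all protein-coding promoters. NRF1 is a transcription factor of genes for mitochondria and other housekeeping functions. The cyclic AMP response element, bound by CREB and ATF factors, was present in 7.28% (3.69 to 12.7%) against 2.23%. GC boxes were in 64.9% against 46.2%, ETS sites in 17.9% against 11.6%, CCAAT boxes in 46.4% against 38.2%, and TATA boxes in 6.62% against 12.6%.

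Some of these differences were absent or turned round among CpG-rich promoters. Among CpG-rich protein-coding promoters only, 120 of members and 9547 in the table, GC boxes were in 70.0% of members against 77.0%, ETS sites in 18.3% against 20.1% and TATA boxes in 4.17% against 4.50%. There the NRF1 core was in 15.8% (9.81 to 23.6%) against 6.43%, and the cyclic AMP response element in 8.33% (4.07 to 14.8%) against 3.76%. AP-1 sites were in 7.50% (3.49 to 13.8%) against 3.24%. CCAAT boxes were in 43.3% of these CpG-rich members against 36.0%, and the E-box in 13.3% against 11.6%. The YY1 core was in 5% against 5.75% and the GATA site in 3.33% against 3.44%. The remaining shares among all protein-coding promoters were 11.3% against 7.84% for the E-box, 5.96% against 3.01% for the YY1 core, 7.95% against 6.99% for the AP-1 site and 5.30% against 9.65% for the GATA site. The windows of the 175 intervals beside a start, of all gene types, held the NRF1 core in 6.29% (3.18 to 11.0%). They held the cyclic AMP response element in 2.86% (0.93 to 6.54%). Among the 170 members of all gene types the shares were 11.8% (7.34 to 17.6%) and 6.47% (3.27 to 11.3%). For both motifs the intervals overlapped.

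**Figure D5:**
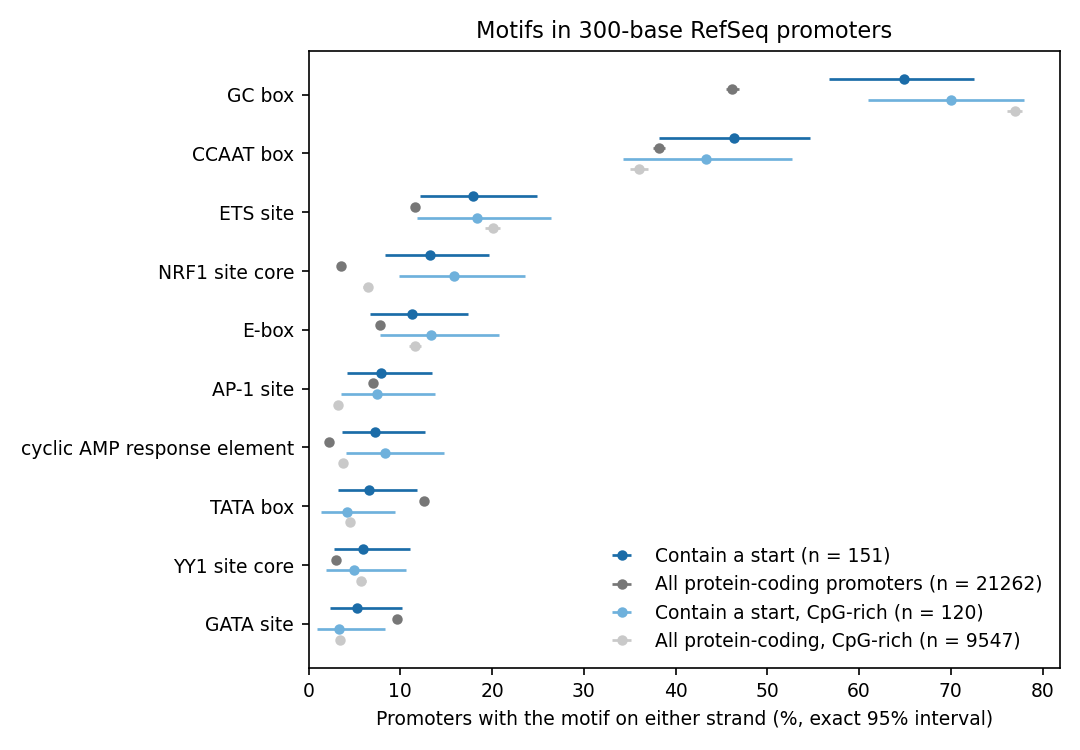
Percent of 300-base RefSeq promoters that hold each of 10 motifs on either strand, for protein-coding members (n = 151) and all protein-coding promoters (n = 21262), and for the CpG-rich ones of each (n = 120 and 9547), with exact 95% binomial intervals. The NRF1 core stands at 13.2% against 3.51% in all promoters and at 15.8% against 6.43% in CpG-rich ones.

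The matches can be seen in 4 promoters, chosen for a motif, a gene class or a shared start described above. In the first pair capitals mark the cyclic AMP response element and CCAAT boxes, on either strand. Taf11, a subunit of the general transcription factor TFIID, lies on the minus strand at chr17:27907695-27907994 with 1 of each, and its interval had a fold of 6.72 from 20 fragments. The Taf11 interval covered only the last 46 bases of the window, and both motifs lay upstream of them. Hist1h2ag lies on the minus strand at chr13:22042900-22043199 with 1 response element and 5 CCAAT boxes. Its interval covered the whole window, and its summit lay 227 bp upstream of the RefSeq start, towards H2bc11.
Taf11: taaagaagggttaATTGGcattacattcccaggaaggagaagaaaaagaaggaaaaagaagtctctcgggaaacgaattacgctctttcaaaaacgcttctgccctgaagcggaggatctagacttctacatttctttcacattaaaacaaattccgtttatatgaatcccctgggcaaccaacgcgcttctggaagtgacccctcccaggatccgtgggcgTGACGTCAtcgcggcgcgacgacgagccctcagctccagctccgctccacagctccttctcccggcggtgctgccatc
Hist1h2ag: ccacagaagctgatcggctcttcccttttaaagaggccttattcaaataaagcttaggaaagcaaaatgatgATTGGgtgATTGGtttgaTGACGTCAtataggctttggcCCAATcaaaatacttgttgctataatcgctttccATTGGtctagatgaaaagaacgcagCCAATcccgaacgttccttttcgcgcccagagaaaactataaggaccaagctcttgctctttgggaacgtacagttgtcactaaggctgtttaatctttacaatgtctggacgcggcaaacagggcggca
In the second pair capitals mark the NRF1 core. Commd1, an inhibitor of NF-kappaB, lies on the minus strand at chr11:22972817-22973116, and its core is read on both strands because the surrounding letters form a palindrome. The Commd1 interval covered only the last 98 bases of the window, and the core lay upstream of them. Rpl5, a protein of the large ribosomal subunit, lies on the plus strand at chr5:107900278-107900577 with 1 core. The Rpl5 interval covered the last 41 bases of the window, which hold the core. The folds of Commd1 and Rpl5 were 6.99 and 6.72, from 23 and 29 fragments.
Commd1: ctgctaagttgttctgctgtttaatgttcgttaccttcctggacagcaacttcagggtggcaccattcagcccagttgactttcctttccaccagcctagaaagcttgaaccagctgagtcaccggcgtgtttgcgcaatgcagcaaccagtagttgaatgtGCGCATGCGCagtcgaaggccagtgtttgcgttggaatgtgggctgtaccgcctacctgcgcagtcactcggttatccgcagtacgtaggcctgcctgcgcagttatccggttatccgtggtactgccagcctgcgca
Rpl5: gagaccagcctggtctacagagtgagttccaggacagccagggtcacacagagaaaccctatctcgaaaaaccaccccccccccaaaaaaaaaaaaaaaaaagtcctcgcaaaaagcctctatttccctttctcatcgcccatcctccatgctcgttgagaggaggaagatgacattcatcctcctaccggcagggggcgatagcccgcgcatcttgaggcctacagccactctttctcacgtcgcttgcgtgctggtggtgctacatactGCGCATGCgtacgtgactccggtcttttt
The response element was found in 11 members, among them also Pex13, Rpl27a, Nup214, Plk2 and Birc2, with folds from 3.50 (Mkks) to 6.72 (Taf11). The NRF1 core was found in 20, with folds from 3.21 (Ppat) to 7.39 (Sgf29), and these included Sft2d1, Zfp719, Zfp82, Rpl37a, Opa1, Wars2, Ndufaf4, Bax and Sirt6. Of the 4 promoters of highest fold printed earlier, Sgf29 and Sft2d1 held the core, which lay inside the interval at Sgf29 and upstream of it at Sft2d1.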

How the data were processed

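The series holds 2 CHD4 and 2 IgG CUT&Tag samples of mouse, grouped by their titles, and 1 peak list over all of them. The submitters' processing notes name MACS2 2.1.2, Bowtie2 2.2.5, Trim Galore 0.5.0 and the build mm10. What was done with duplicates, and how replicates were joined, is stated by no source used here. Per the file headers, the authors' fold is a ratio of CHD4 to IgG at a summit, deposited also as log2. The deposited −log10 p and −log10 q columns lost their headers and were recognised by position, since the deposited score equals 10 times the latter, rounded down. The opening peak was lost as a header and is not analysed here. Widths, summit offsets, positions and distances are deposited in bp.

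Rows of the same interval were joined with Python 3.11.15, pandas 2.3.3, numpy 2.4.6 and scipy 1.17.1, and figures drawn with matplotlib 3.10.9. An interval took the values of its summit of highest fold. Fragments were recovered on the model that the fold is the scaled CHD4 fragments plus 1 over the IgG expectation plus 1, with a Poisson p, which the authors do not state. A scale of 0.429 gave 1 whole-number solution at all 2066 summits, within 0.0005 on −log10 p. The scale was first picked on a sample of 80 summits by another criterion. On that sample and criterion, no scale tried solved more than 52.5%, close neighbours of the chosen scale left aside. Solving for fragments was tested on data simulated on the same model with its scale given, so that test covers neither the scale nor the model. Medians have exact order-statistic intervals at 95%, shares exact Clopper-Pearson ones, and single fragment numbers exact Poisson ones. They cover counting error only.

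Members, classes, lists and motifs were chosen with earlier results of these data known. Genes are named by rule: the 12 highest folds, the 6 highest −log10 q, the 5 widest, narrowest, and most and least covered intervals, the 4 highest folds of each class, every member of the 11 gene lists and the 6 highest folds among promoters shared on opposite strands. Some genes that meet the rule are not reported here. After names were seen, zinc fingers were taken out of the class of other transcription factors and protein-coding genes out of that of small RNAs. Alternatives changed the unit, the q threshold, the summit chosen, multiple summits, neighbouring intervals within 10 kb, small RNA genes, sex chromosomes and, added later, which starts count.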

Additional observations from a re-analysis of the deposited data

How the results depend on the processing

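Of the recomputed values, 67 stayed within the 95% interval of the value reported, 5 did not and 0 reversed. With each of the 334 summits as the unit the median width was 305 bp. With a q of 0.01 or less the median fold of the 218 remaining members was 4.62. Counting only starts within 100 bp of a RefSeq gene end, tried only after the data had been seen, left 163 members. They made up 9.47% of these members and the 1559 other intervals together, with the remaining start intervals dropped from the list. Their median width was 311 bp, and the width difference was 33 bp. The share is lower there by construction, and the cause of the wider median was not tested. The difference in median fold stayed between -0.57 and -0.44 in all alternatives. No paired analysis was possible because the list has no value per sample, and for the same reason no replicate could be left out. Depth limits the weakest members, since 47 rest on fewer than 20 CHD4 fragments, and folds over an IgG expectation under 1 rest on very few IgG fragments. Spermatogonia and other testis cells cannot be told apart in this list.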

Other observations

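After the gene names had been read, members were also grouped by known function beyond the name patterns, as a description without a test. The largest such group, 21 genes of transcription and chromatin complexes and regulators, had a median fold of 3.92, below that of all members. Its median IgG expectation was 3.32, against 2.21 for all members, and the cause of the lower fold was not tested. Folds in this group ranged from Hdac1 at 9.18, Sbno2 at 8.06 and Sgf29 at 7.39 to Cic, a repressor of growth factor target genes, at 2.03. Between them stood Taf11 of TFIID at 6.72, Paf1, which travels with RNA polymerase II, at 5.93, and Kat8, which acetylates histone H4, at 5.26. A group of 12 stress and early response genes had a median of 4.28, and 9 of its starts were at the RefSeq 5′ end, none more than 1 kb inside. It held Socs2, a brake on cytokine signalling, at 5.73, Hilpda at 5.62, the antiproliferative Btg3 at 5.43 and the matrix protein gene Ccn2 at 5.36. The 9 genes of DNA repair and replication had a median of 3.83, also below that of all members, and ranged from 2.76 to 9.03. Their median IgG expectation was 2.4. Fancb had 9.03, Ctc1, a telomere protein, 4.98 and Ogg1, which removes oxidised guanine, 4.61. The 6 genes of RNA methylation and processing had a median of 4.65, among them Alkbh8, a tRNA methyltransferase, at 5.89 and Mettl14, of the enzyme that makes N6-methyladenosine, at 4.54. Among genes named for sperm or testis, Tes had a fold of 5.75, Spa17 5.48, Tex14 4.32, Spaca6 3.25, Izumo4, of a family of sperm membrane proteins, 2.44 and Tsga10 1.95. The Tex14 interval overlapped a small nuclear RNA gene.

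Some member genes had further CHD4 intervals that did not contain a start. There were 53 such intervals in 35 member genes. Tex14 had 6, with folds up to 11.1, all above the 4.32 of its start interval. That start interval overlapped the small nuclear RNA gene Gm22068, so these folds cannot be assigned to Tex14 as a gene. Dusp6 had 1 further downstream, 31.5 kb from the nearest deposited transcript start, with a fold of 6.29, against 3.10 at the start. Ccn2 had 1 at 102 kb upstream with 6.48, against 5.36. Some further intervals lay close to another start of the gene. At Cic, the pair of further intervals lay 0.216 and 0.651 kb from the nearest deposited start. They had folds of 3.37 and 2.92, against 2.03 in the Cic start interval. In all, 37 members (12.8%) had another interval within 10 kb. That share was not computed for the other intervals, so it cannot be called high or low.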
